A study of Mus musculus with 16 samples.

Results

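The transcripts described here encode the core of the MHC class II antigen presentation pathway in mouse stomach. They are the peptide-binding chains H2-Aa, H2-Ab1 and H2-Eb1, the invariant chain Cd74, the peptide exchange factor chains H2-DMa and H2-DMb1, and the transactivator Ciita. These 7 genes were chosen by name, as the rows with those symbols among the 24964 symbols of the count table. The rule uses no measured value, but the genes were named when earlier results of these data were known. All 7 passed the filter on low counts, which left 15385 genes to test. Biopsies were taken at the lesser curvature of the stomach corpus, and their RNA was sequenced in 16 libraries, 4 for each of the 4 groups. All mice were females aged 8 weeks. WT-S and WT-A were wild-type C57BL/6 mice. TTP-S and TTP-A were congenic C57BL/6 mice with the TTPΔARE allele of Zfp36, in which an AU-rich element has been deleted from the Zfp36 transcript. Zfp36 encodes tristetraprolin (TTP), which binds AU-rich elements of transcripts and promotes their decay. The treatment label of both A groups names gastric inflammation induced by adrenalectomy, the removal of the adrenal glands. For both S groups the treatment label reads spasmolytic polypeptide-expressing metaplasia (SPEM), which is a change of injured corpus glands towards mucous cells. The labels do not say whether S mice were operated on, and S serves here as a group name.

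MHC class II molecules are pairs of an alpha and a beta chain that carry peptides from endocytosed proteins to the surface of dendritic cells, macrophages and B cells, where CD4+ T cells read them. The invariant chain blocks the peptide groove until cathepsins, chiefly cathepsin S, trim it down to a short peptide in endosomes, and the H2-DM pair then exchanges that peptide for others. CIITA does not bind DNA itself but acts on RFX, CREB and NF-Y factors at the X and Y boxes of class II promoters, and its own gene responds to interferon gamma in many cells that are not professional antigen presenting cells. Mice of the C57BL/6 background carry a defective E alpha gene, H2-Ea-ps, so the E beta chain encoded by H2-Eb1 has no partner in them.

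Promoter sequences are shown for H2-Aa and H2-Eb1, because they let the shared X and Y boxes of the pathway be seen, and for H2-Ob, a class II gene near the detection limit with matches to the same motifs. The sequences come from RefSeq (GRCm38.p6), each running 5′ to 3′ on the strand of the gene and covering the 117 bases from 120 to 4 bases before the transcript start. Capitals mark an X box-like match to CTNGNAAC and a Y box match to TGATTGG. The stretches lie at chr17:34287827-34287943 on the minus strand for H2-Aa, at chr17:34305747-34305863 on the plus strand for H2-Eb1 and at chr17:34238785-34238901 on the plus strand for H2-Ob.
H2-Aa: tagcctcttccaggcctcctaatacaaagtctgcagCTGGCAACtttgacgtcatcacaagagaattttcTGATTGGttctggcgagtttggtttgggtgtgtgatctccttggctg
H2-Eb1: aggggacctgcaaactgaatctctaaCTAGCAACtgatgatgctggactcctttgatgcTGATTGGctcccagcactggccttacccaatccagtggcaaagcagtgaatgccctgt
H2-Ob: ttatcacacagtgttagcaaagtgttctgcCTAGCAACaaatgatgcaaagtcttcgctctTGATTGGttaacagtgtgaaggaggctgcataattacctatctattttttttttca
The X match began 84 bases before the start of H2-Aa, 94 before that of H2-Eb1 and 90 before that of H2-Ob. Between the X and Y matches lay 26, 25 and 23 bases, respectively.

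The window of 300 bases around the start of H2-DMb1 (chr17:34152941-34153240) also held the pair, as CTAGTAAC with 26 bases to the Y match. Of the 7 genes, 4 had a window in the promoter table, and H2-DMa, with 2 windows, had neither motif in them. Other class II genes also lacked the pair. The windows of H2-DMb2 and H2-Oa held a Y match but no X match. That of H2-Eb2 held 1 of each, but not as the pair on the strand of the gene. Searched on both strands, the X motif was in 13.2% and the Y motif in 7.82% of the 32851 windows of all genes. The X motif followed by the Y motif within 40 bases on the same strand was in 31 windows, or 0.0944%. Matches of the motifs did not overlap in these pairs. The motifs were written down with these class II sequences in view, so their presence is a description of the promoters and not a test.

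Total counts were 17453930 to 25849472 per library. Zfp36 was at 55.1 to 88.6 CPM (counts per 1e6 counts of the TMM-scaled library) in the 8 wild-type libraries and at 110 to 131 CPM in the 8 TTPΔARE libraries, without overlap. Corpus epithelial transcripts summed to 88700 to 205000 CPM, so the labelled tissue was present in every library. In WT-A 3 and WT-A 4, levels moved with the GC content of transcripts (Spearman rho across genes of 0.73 and 0.757, against at most 0.31 in size elsewhere), and results are also given for the other 14 libraries. Transcripts of the squamous forestomach summed to 1.91 to 1040 CPM and passed 200 CPM in WT-S 3, WT-A 2, WT-A 3, TTP-S 1 and TTP-A 4.

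Per kilobase of transcript, the 7 genes spanned a wide range of levels and kept nearly one order in all libraries. Cd74 was at 146 CPM per kilobase over the 16 libraries on average, H2-Ab1 at 64.0, H2-Aa at 33.3 and H2-Eb1 at 30.4. The peptide exchange chains stood lower, with 5.1 for H2-DMb1 and 2.91 for H2-DMa, and Ciita was lowest at 0.752 CPM per kilobase. Each neighbour in this order was above the next in 16 of 16 libraries, except that H2-Aa was above H2-Eb1 in 14 of 16. The order depends on the transcript lengths used, 1128 bases for H2-Aa and 1669 bases for H2-Eb1. In CPM, before division by length, H2-Eb1 was above H2-Aa in every library (WT-S means of 41.8 and 32.7). The ratio of H2-Aa to H2-Eb1 was 0.919 to 1.29 with a median of 1.11, the only ratio of neighbours whose range included 1. The invariant chain exceeded H2-Ab1 by 1.83 to 2.58 times per kilobase, and H2-Ab1 exceeded its alpha partner H2-Aa by 1.55 to 2.3 times. The transcript of the transactivator was 62.3 to 110 times less abundant per kilobase than H2-Ab1. By mean CPM, Cd74 was gene 666 of the 15385 tested and H2-Ab1 gene 2499, whereas Ciita was gene 11377. Ciita was counted 41 to 246 times in a library.

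In the mm10 annotation used here (GENCODE M21) the peptide-binding chains and H2-DM genes lie together on chromosome 17. H2-Aa covers chr17:34282744-34287823 on the minus strand, H2-Ab1 chr17:34257689-34269419, H2-Eb1 chr17:34305867-34316674, H2-DMa chr17:34119541-34139101 and H2-DMb1 chr17:34153072-34160230, all 4 on the plus strand. Ciita lies apart at chr16:10480059-10528418 on the plus strand, and Cd74 on chromosome 18. H2-DMb1 has a near copy next to it, H2-DMb2, which holds 369 of the 1629 different stretches of 50 bases in H2-DMb1 transcripts (22.7%). How the authors' counting treated reads from those stretches is not given in the sources used here, so both genes' counts are uncertain. No other pair of class II genes examined shared such a stretch.

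All 7 transcripts had higher means in the adrenalectomised groups than in the S groups, in both genotypes. Averaged over both genotypes in 1 edgeR model, A exceeded S by 1.58 (H2-Aa) to 2.08 times (Ciita). All 7 passed an adjusted p of 0.05, the threshold at which a gene is called here, against 18.9% of all genes tested in either direction and 10.6% called higher. The median log2 difference of the 7 was 0.72, and that of all genes tested was -0.0001. In a biopsy, more cells of a type and more RNA per cell cannot be told apart. Because the labels do not say that the 4 libraries of a group are separate animals, p-values measure the spread between these libraries.

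**Figure D1:**
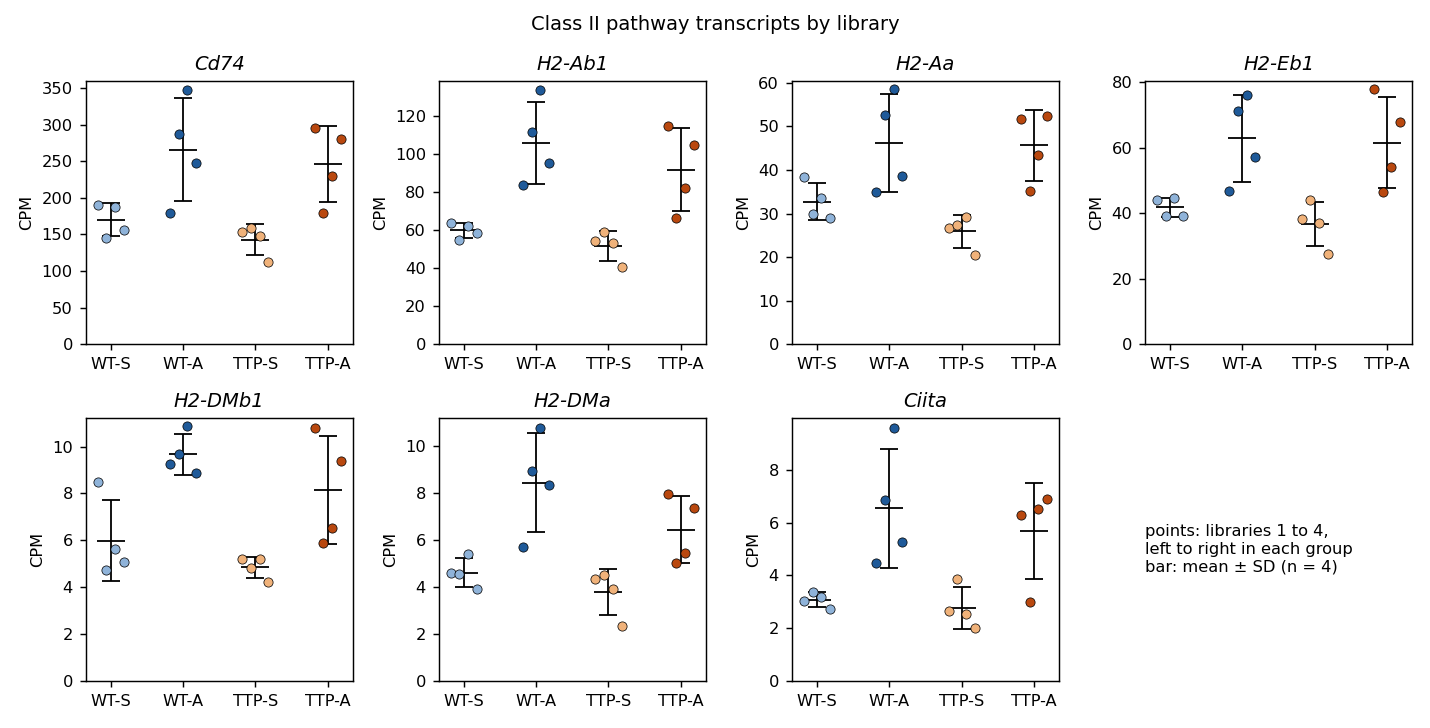
Level of each gene (CPM, linear axis from 0) in the 16 libraries, with points for libraries 1 to 4 of each group and bars for mean ± SD (n = 4). The A libraries lie mostly above the S libraries of their genotype in all 7 panels, with WT-A 3 highest among the wild-type libraries and TTP-S 4 lowest of all 16.

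The alpha and beta chains of the A molecule were examined first. H2-Ab1, the A beta chain, was at 63.7, 55.0, 62.5 and 58.7 CPM in WT-S 1 to 4 and at 84.1, 112, 134 and 95.7 CPM in WT-A 1 to 4. In the TTPΔARE mice it was at 54.6, 58.9, 53.2 and 40.6 CPM in TTP-S and at 115, 66.3, 82.1 and 105 CPM in TTP-A. Each A library lay above every S library of its genotype, and TTP-A 2 was the A library closest to the S range. The log2 difference was 0.83 ± 0.17 (SE) in wild type (edgeR quasi-likelihood test with Benjamini-Hochberg adjustment, adjusted p = 0.00518) and 0.83 ± 0.17 in TTPΔARE (adjusted p = 0.0185), or 1.77 and 1.78 times. Without WT-A 3 and WT-A 4 the wild-type difference of H2-Ab1 was 0.71 (edgeR adjusted p = 0.0252).

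H2-Aa, the A alpha chain, stood at 38.3, 29.8, 33.5 and 29.0 CPM in WT-S and at 34.9, 52.7, 58.5 and 38.7 CPM in WT-A. It was at 26.7, 27.3, 29.1 and 20.4 CPM in TTP-S and at 51.8, 35.1, 43.5 and 52.4 CPM in TTP-A. The wild-type groups overlapped, since WT-A 1 was below WT-S 1, and the TTPΔARE groups did not. The difference was 0.50 ± 0.17 on the log2 scale in wild type (edgeR adjusted p = 0.047) and 0.82 ± 0.17 in TTPΔARE (edgeR adjusted p = 0.0206). Of the 7 genes H2-Aa had the smallest difference in wild type, and in the 14 libraries it was 0.43 and no longer called (edgeR adjusted p = 0.145).

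H2-Eb1, the E beta chain, was at 44.1, 39.3, 44.8 and 39.2 CPM in WT-S and at 46.8, 71.4, 76.2 and 57.3 CPM in WT-A. In TTP-S it was at 38.4, 44.0, 36.9 and 27.6 CPM and in TTP-A at 77.9, 46.5, 54.1 and 67.8 CPM. Neither pair of groups overlapped, although WT-A 1 and TTP-A 2 stood only slightly above the highest S library of their genotype. The log2 difference was 0.59 ± 0.17 in wild type (edgeR adjusted p = 0.0288) and 0.74 ± 0.17 in TTPΔARE (edgeR adjusted p = 0.0335). With 14 libraries the wild-type value was 0.50 (edgeR adjusted p = 0.122). Transcripts of its missing partner, H2-Ea-ps, were counted once, in WT-A 4, over all 16 libraries.

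Cd74, the invariant chain that occupies the groove of new class II molecules, was at 190, 145, 187 and 156 CPM in WT-S and at 179, 288, 348 and 248 CPM in WT-A. In TTPΔARE it was at 153, 159, 148 and 113 CPM in S and at 295, 180, 230 and 280 CPM in A. WT-A 1 lay inside the WT-S range, and the other 3 WT-A libraries lay above it. The groups of the TTPΔARE mice did not overlap. The log2 difference was 0.65 ± 0.19 in wild type (edgeR adjusted p = 0.0265) and 0.78 ± 0.19 in TTPΔARE (edgeR adjusted p = 0.0361), and the wild-type value in 14 libraries was 0.46 (edgeR adjusted p = 0.158).

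The H2-DM chains, which together swap the invariant chain peptide for others, were present at lower levels. H2-DMa was at 4.59, 4.54, 5.41 and 3.94 CPM in WT-S and at 5.70, 8.97, 10.8 and 8.35 CPM in WT-A. It was at 4.33, 4.53, 3.90 and 2.36 CPM in TTP-S and at 7.95, 5.02, 5.47 and 7.36 CPM in TTP-A. Its groups did not overlap in either genotype. The log2 difference of H2-DMa was 0.87 ± 0.22 in wild type (edgeR adjusted p = 0.0143) and 0.77 ± 0.22 in TTPΔARE, which was not called (edgeR adjusted p = 0.0732). In the 14 libraries the calls were the other way round, with 0.67 in wild type (adjusted p = 0.0932) and 0.76 in TTPΔARE (adjusted p = 0.0454, edgeR).

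H2-DMb1, the beta chain of that pair, was at 8.51, 4.75, 5.63 and 5.07 CPM in WT-S and at 9.24, 9.69, 10.9 and 8.87 CPM in WT-A. The corresponding TTPΔARE values were 5.19, 4.82, 5.19 and 4.23 CPM in S and 10.8, 5.89, 6.53 and 9.40 CPM in A. WT-S 1 stood apart from the other WT-S libraries and close to the WT-A range, but the groups did not overlap. The log2 difference was 0.70 ± 0.19 in wild type (edgeR adjusted p = 0.0227) and 0.75 ± 0.20 in TTPΔARE (edgeR adjusted p = 0.0525). H2-DMb1 differed in the 14 libraries, of which 2 are WT-A, by 0.67 and 0.75, with adjusted p of 0.0781 and 0.0407, respectively (edgeR).

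Ciita, the transactivator of the other genes, showed the largest ratios and the widest spread. It was at 3.02, 3.39, 3.17 and 2.71 CPM in WT-S and at 4.48, 6.86, 9.60 and 5.26 CPM in WT-A. In TTP-S it was at 2.67, 3.87, 2.52 and 2.02 CPM, and in TTP-A at 6.31, 3.0, 6.53 and 6.90 CPM. All WT-A libraries lay above all WT-S libraries, whereas TTP-A 2 lay within the TTP-S range and far from the other 3 TTP-A libraries. The log2 difference was 1.09 ± 0.27 in wild type (edgeR adjusted p = 0.0147) and 1.03 ± 0.27 in TTPΔARE (edgeR adjusted p = 0.0547), or 2.12 and 2.04 times. In the 14 libraries Ciita differed by 0.88 in wild type (adjusted p = 0.0656) and by 1.03 in TTPΔARE (adjusted p = 0.0282, edgeR).

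Counted together, 7 of 7 genes rose in WT-A against WT-S, where 18.8% of all genes were called in either direction and 9.8% were called higher. In TTP-A against TTP-S 4 of 7 were called, H2-Ab1, H2-Aa, H2-Eb1 and Cd74, where 2.9% of all genes were called and 1.55% were called higher. Median log2 differences of the 7 were 0.70 in wild type and 0.78 in TTPΔARE, beside 0.0094 and -0.001 over all genes. All 4 A libraries lay above all 4 S libraries for 5 of the 7 genes in wild type, as they did for 9.2% of all genes, and for 6 of the 7 in TTPΔARE, as they did for 6.94% of all genes. For these 5 and 6 genes the exact two-sided permutation test gave p = 0.0286, the smallest p that groups of 4 allow. The largest exact p among the 7 genes was 0.0857 in wild type and 0.0571 in TTPΔARE.

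Leaving out the 2 libraries set apart by GC content changed the counts within each genotype but not the joint one. In the 14 libraries H2-Ab1 alone was called in wild type (1 of 7, beside 10.5% of all genes), all 7 were called in TTPΔARE (beside 6.33%), as they were by DESeq2 in 16 libraries (beside 2.92% of its genes called higher), and all 7 were called over both genotypes (beside 19.7%). The 7 transcripts had a GC content of 51.0% to 57.3%, and the median of all genes tested was 50.3%. Without WT-A 3 alone, which is also one of the squamous-rich libraries, 1 of 7 was called in wild type (beside 8.27% of all genes), and without WT-A 4 alone all 7 were (beside 14.6%). Without WT-S 2 or WT-S 4 the count was 3 of 7 (beside 8.14% and 10.6%). In TTPΔARE none was called when TTP-A 1, TTP-A 4 or TTP-S 4 was left out, beside 0.39%, 0.533% and 0.494% of all genes. The count was 1 without TTP-S 2 (beside 0.572%), 2 without TTP-S 1, TTP-S 3 or TTP-A 3 (beside 1.37%, 1.09% and 1.25%), and 7 without TTP-A 2 (beside 6.14%). The members' counts in TTPΔARE thus moved with the share of all genes called. Over both genotypes all 7 remained called whichever single library was left out, beside 12.7% to 26.9% of all genes.

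Squamous forestomach transcripts varied between the libraries of every group. Their sum ran from 1.91 to 251 CPM in WT-S and from 52.4 to 1040 CPM in WT-A, and from 30.4 to 492 CPM in TTP-S and from 3.7 to 268 CPM in TTP-A, and no gene of that list was at 0 in all libraries. Without the 5 libraries over 200 CPM, all 7 class II genes still had higher means in A, with log2 differences of 0.19 to 0.68 in wild type and 0.71 to 0.90 in TTPΔARE. No class II gene was then called within a genotype (edgeR adjusted p of 0.143 or more), and over both genotypes only H2-Ab1 was (adjusted p = 0.0359). Of all genes, 0.052% in wild type, 0.208% in TTPΔARE and 2.18% over both were called in that fit, so calls fell across the whole table. By the mean of the 7 genes, the 5 libraries over 200 CPM held ranks 1 (WT-A 3, 600 CPM), 3 (WT-A 2, 1040 CPM), 4 (TTP-A 4, 268 CPM), 10 (WT-S 3, 251 CPM) and 14 (TTP-S 1, 492 CPM) of 16, and rank 2 was TTP-A 1 at 56.1 CPM. Krt5, a keratin of that epithelium, had a Spearman rho of 0.365 with that mean. The part of this tissue in the differences was not tested beyond these values.

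**Figure D2:**
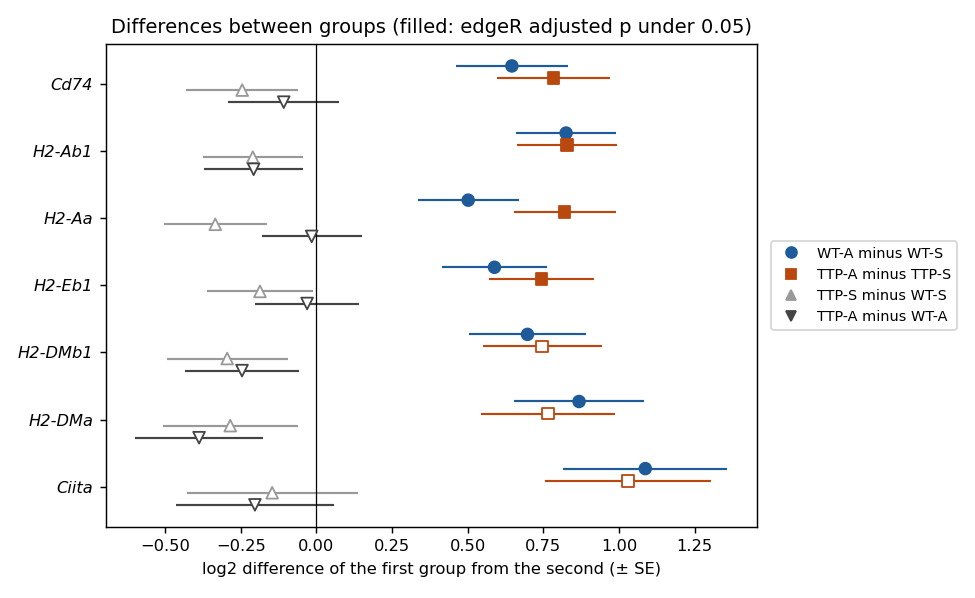
Log2 difference between groups ± SE for each gene in 4 contrasts (edgeR, 16 libraries), with filled symbols for an adjusted p under 0.05. Both contrasts of A with S lie between 0.50 and 1.09, whereas both contrasts of TTPΔARE with wild type lie between -0.39 and -0.02 and are open symbols throughout.

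Between genotypes, no class II gene differed at the threshold in either condition. In S, all 7 genes had a lower mean in TTPΔARE, by -0.15 (Ciita) to -0.33 (H2-Aa) on the log2 scale. None was called by edgeR, none had an unadjusted p under 0.05, and DESeq2 and limma voom called 0, where edgeR called 0.0325% of all genes. H2-Aa had the lowest unadjusted p, 0.0663 (log2 difference -0.33 ± 0.17). The TTP-S and WT-S libraries overlapped for each of the 7 genes, while they did not for 6.74% of all genes, and exact permutation p-values were 0.0571 to 0.429.

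In A, the differences of TTPΔARE from wild type ran from -0.02 (H2-Aa) to -0.39 (H2-DMa). Here too 0 of 7 were called by edgeR, DESeq2 or limma voom, and 0 had an unadjusted p under 0.05 in edgeR, whereas 5.17% of all genes were called by edgeR. The largest of these, -0.39 ± 0.21 for H2-DMa, had an edgeR adjusted p of 0.242. H2-Aa was at 46.2 ± 11.2 CPM in WT-A and 45.7 ± 8.14 CPM in TTP-A (SD, n = 4 each), so its means lay closer than the spread within either group. The libraries of TTP-A and WT-A overlapped for each of the 7 genes, and did not for 12.2% of all genes. In the 14 libraries H2-Aa, H2-Eb1, Cd74 and Ciita took the opposite sign, with values of 0.0013 to 0.0765, and the median of the 7 was 0.0013.

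Over both conditions the difference of TTPΔARE from wild type was -0.34 ± 0.15 for H2-DMa (edgeR adjusted p = 0.249). Its unadjusted value of 0.044 in edgeR was the only one under 0.05 among the 7 genes. The other 6 lay between -0.11 and -0.27 log2. None was called by edgeR, DESeq2 or limma voom, beside 0.864% of all genes. The response to A was compared between genotypes by the interaction term, which was largest for H2-Aa at 0.32 ± 0.24 log2 (edgeR adjusted p = 0.506). For H2-Ab1 the term was 0.0028 ± 0.23, and for the other 5 genes it lay between -0.10 and 0.16. No interaction was called by any of the 3 tools or had an unadjusted p under 0.05 in edgeR, beside 0.0585% of all genes called. With standard errors of 0.23 to 0.39 log2, differences in response of that size could not be resolved.

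The 7 genes ranked the libraries in nearly the same way. Across the 16 libraries, Spearman rho between pairs of them was 0.779 to 0.988 with a median of 0.915 over the 21 pairs. H2-Ab1 and H2-Eb1 had the highest value, and Ciita and H2-DMb1 the lowest. After group means were removed, rho was 0.418 to 0.965 with a median of 0.824. Libraries share depth and tissue composition over all genes, so these values describe the libraries and carry no p. By the mean log2 CPM of the 7 genes, the 4 highest libraries were WT-A 3, TTP-A 1, WT-A 2 and TTP-A 4, and TTP-S 4 was the lowest. WT-S 1, in rank 8, stood above TTP-A 2, in rank 9, the only A library that did not rank above every S library.

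**Figure D3:**
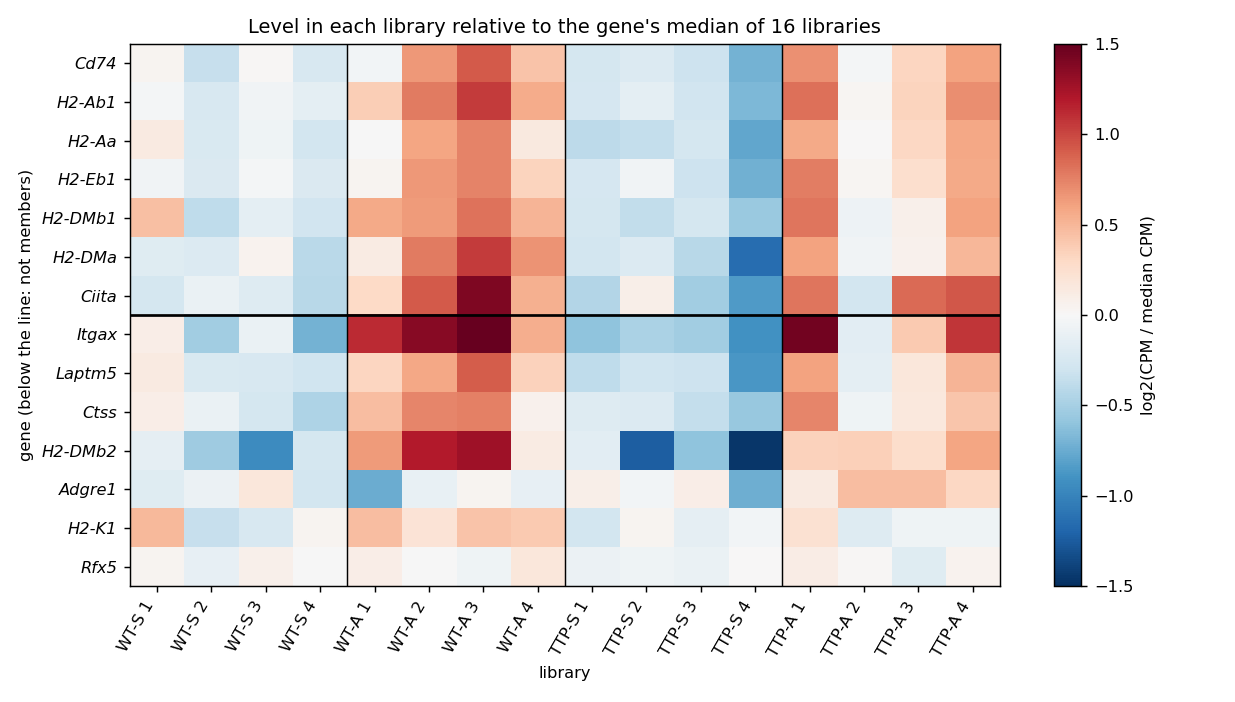
Log2 of each gene's CPM over its median in 16 libraries, as colour with 0 in white, with the 7 class II pathway genes above the line and 7 other genes below it. The columns WT-A 2, WT-A 3, TTP-A 1 and TTP-A 4 are red in nearly all rows of the upper block and in Itgax, Laptm5 and Ctss, while the rows of Adgre1 and Rfx5 are paler in these columns.

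Among the other genes tested, the 6 with the closest pattern to the mean of the 7 were Laptm5 and Il2rg (Spearman rho 0.985 each over 16 libraries), Itgax (0.968), Mgl2 and Selplg (0.956 each) and Arhgap9 (0.95). Laptm5 encodes a lysosomal membrane protein of leukocytes, Il2rg the common gamma chain of cytokine receptors, and Itgax the integrin chain CD11c, a marker of dendritic cells. Mgl2 encodes a lectin, CD301b, of a subset of dendritic cells and macrophages. In wild type Itgax ran from 4.97 to 8.68 CPM in S and from 11.8 to 26.2 CPM in A, and in TTPΔARE from 4.33 to 5.85 CPM in S and from 7.25 to 22.1 CPM in A, so its A and S groups did not overlap in either genotype. Its log2 difference was 1.52 ± 0.30 in wild type (edgeR adjusted p = 0.005) and 1.43 ± 0.31 in TTPΔARE (edgeR adjusted p = 0.0245). With group means removed, Laptm5 kept a rho of 0.953 and Arhgap9 of 0.959. Of macrophage genes, rho over 16 libraries was 0.768 for C1qa, 0.703 for Csf1r and 0.215 for Adgre1, the marker F4/80. With group means removed these were 0.871, 0.403 and 0.244, so C1qa then lay close to Itgax (0.885) and Mgl2 (0.815). It was 0.818 for the epithelial gene Epcam, which dropped to 0.356 with group means removed, and 0.385 for Rfx5. C1qa and Adgre1 were named after their values were seen.

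Of the other class II genes, H2-DMb2, H2-Oa and H2-Ob passed the filter, at 0.148 to 1.64 CPM. H2-DMb2 rose over both genotypes by 1.24 ± 0.22 log2 (edgeR adjusted p = 0.0016), with 0.352 to 0.616 CPM in WT-S against 0.739 to 1.64 in WT-A, and 0.246 to 0.608 in TTP-S against 0.816 to 1.02 in TTP-A. H2-Oa and H2-Ob, the chains of a DM inhibitor of B cells and some dendritic cells, were not called, with log2 differences of 1.09 (adjusted p = 0.0647) and 0.72 (adjusted p = 0.0949). H2-Ob, whose promoter is shown above with an X box-like and a Y box match, was at 0.148 to 1.30 CPM. Over both conditions it was higher in TTPΔARE, where the 7 genes had lower means, by 0.69 ± 0.29, with an unadjusted edgeR value of 0.0294, and was not called (edgeR adjusted p = 0.21). H2-Eb2 was counted 0 to 5 times in a library and was not tested. The median of the 3 tested was 1.09.

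Genes for peptide supply and for trimming of the invariant chain divided. Of 10 tested, 4 rose and 0 fell over both genotypes, with a median log2 difference of 0.06. Ctss, cathepsin S, rose by 0.68 ± 0.12 (edgeR adjusted p = 0.00211), close in size to Cd74 (0.71). It was at 30.4, 26.5, 23.6 and 20.6 CPM in WT-S and at 39.2, 47.3, 48.1 and 29.7 CPM in WT-A, and those groups overlapped through WT-A 4. In TTP-S it was at 24.8, 24.7, 22.1 and 19.2 CPM, all below the 47.3, 27.1, 31.6 and 37.8 CPM of TTP-A. Lgmn, the asparagine endopeptidase (0.27), Cst3, a cathepsin inhibitor (0.26), and Ctsl, cathepsin L (0.21), rose by less, with edgeR adjusted p of 0.00237, 0.0144 and 0.0299. Cst3 was not called in the 14 libraries (0.20, adjusted p = 0.0527), where 4 of 10 were higher and 1 lower. The added calls there were Sppl2a, a protease of the invariant chain stub (0.29, adjusted p = 0.0192, against 0.07 and 0.756 in 16 libraries), and Ctsb, cathepsin B (-0.11, adjusted p = 0.0499, against -0.09 and 0.0879), both named after their values were seen.

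Of the DNA-binding factors of class II promoters, Rfx5, Rfxap, Rfxank, Nfya, Nfyb, Nfyc and Creb1, 0 of 7 were called by edgeR in A against S over both genotypes. None had an unadjusted p under 0.05, and their log2 differences were -0.17 to 0.10 with a median of 0.03. Rfx5, a subunit of the complex that binds the X box, averaged 23.4 ± 1.38 CPM in S and 24.3 ± 1.79 CPM in A of wild type, and 22.4 ± 0.702 CPM in S and 23.5 ± 2.01 CPM in A of TTPΔARE (SD, n = 4). Its difference over both genotypes was 0.06 ± 0.05 log2 (edgeR adjusted p = 0.416), against 1.06 ± 0.19 for Ciita, the factor that acts on that complex.

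Of the interferon gamma axis, 3 of 10 tested genes rose and 1 fell over both genotypes (median 0.05 log2). Ifng itself was counted once over all 16 libraries, in WT-A 1. Socs1, a feedback inhibitor of JAK signalling, rose by 1.24 ± 0.19 log2 (edgeR adjusted p = 0.000723), and Irf1 and Ifngr2 by 0.23 and 0.24 (adjusted p of 0.0468 and 0.028). Irf1 differed by 0.46 in wild type (edgeR adjusted p = 0.00983) and by -0.01 in TTPΔARE (adjusted p = 0.98), and over both genotypes it was not called in the 14 libraries (0.19, adjusted p = 0.092). Ifngr1, a receptor chain, fell by 0.31 log2 (edgeR adjusted p = 0.000469). The chemokine genes Cxcl9 and Cxcl10, targets of the pathway, were at 0.432 to 1.23 CPM and at 0.329 to 0.933 CPM and were not called, and were named after their values were seen.

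The class I pathway, which presents peptides from inside the cell, gave smaller differences. Over both genotypes 5 of 10 genes rose and 0 fell, with a median of 0.24 log2, beside 0.72 for the 7 class II genes. In wild type 6 of 10 rose (median 0.43), and in TTPΔARE 0 of 10 were called by edgeR or had an unadjusted p under 0.05 (median 0.07). The shares of all genes called higher were 9.8% in wild type and 1.55% in TTPΔARE. Tap2, a subunit of the peptide transporter, rose in wild type by 0.49 ± 0.08 (edgeR adjusted p = 0.00269) and differed by 0.09 ± 0.09 in TTPΔARE (edgeR adjusted p = 0.688), but its interaction was not called (edgeR adjusted p = 0.172). Within A, the TTPΔARE minus wild-type difference of Tap2 was -0.46 ± 0.08 (edgeR adjusted p = 0.0126, and 0.0411 in the 14 libraries). Tap2 and H2-D1 were the 2 of 10 class I genes called lower there, and only Tap2 was in the 14 libraries. Of all genes, 5.17% and 1.81% were called in either direction, respectively. Psmb9, Psmb10 and Psmb8, the immunoproteasome subunits, rose over both genotypes by 0.40, 0.31 and 0.36 log2 (edgeR adjusted p of 0.0155, 0.0125 and 0.0213). H2-K1, a classical class I heavy chain, was not called (0.22 ± 0.10, edgeR adjusted p = 0.146).

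Among costimulatory genes 1 of 6 rose over both genotypes (median 0.43). It was Pdcd1lg2, the ligand PD-L2, with 1.66 ± 0.35 log2 (edgeR adjusted p = 0.00452), at 0.0984 to 1.32 CPM across libraries. Pdcd1lg2 differed by 1.13 in wild type, which was not called (edgeR adjusted p = 0.0915), and by 2.19 in TTPΔARE (adjusted p = 0.0357), with no call for the interaction (adjusted p = 0.462). The 14 libraries added a lower call for Icosl, the ICOS ligand (-0.30, edgeR adjusted p = 0.0212), named after its values were seen.

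Markers of the cell types that carry class II molecules were measured in the same libraries, and their part in the class II differences was not tested. Of dendritic cell genes, 7 of 12 were higher and 0 lower over both genotypes, with a median of 0.73 log2. Batf3, a transcription factor that type 1 dendritic cells need, rose by 1.67 ± 0.26 (edgeR adjusted p = 0.000814), Cd209a by 1.07 ± 0.18 (adjusted p = 0.00137) and Itgae by 1.31 ± 0.27 (adjusted p = 0.00395). Other genes of type 1 dendritic cells were not called, Clec9a (-0.09, adjusted p = 0.723) and Xcr1 (0.56, adjusted p = 0.0889), and were named after their values were seen. By genotype, 6 of 12 dendritic cell genes rose in wild type and 1 of 12, Itgax, in TTPΔARE, with 4 and 3 in the 14 libraries, and the difference between these counts was not tested. Of all genes, 9.8% and 1.55% were called higher in 16 libraries. In the 14 libraries 10.5% and 6.33% were called in either direction. Cd209a differed by 1.56 in wild type (edgeR adjusted p = 0.00188) and by 0.58 in TTPΔARE (adjusted p = 0.29), its interaction was not called (adjusted p = 0.25), and within A its TTPΔARE minus wild-type difference was -0.95 (adjusted p = 0.0358, and 0.111 in the 14 libraries). The 12 genes summed to 23.7 to 30.3 CPM in S and 40.1 to 61.8 CPM in A of wild type, and to 21.9 to 27.2 CPM in S and 27.4 to 53.3 CPM in A of TTPΔARE, so A lay above S in both genotypes. Macrophage genes divided, with 3 of 12 higher, 2 lower and a median of 0.21. Cd68, a lysosomal glycoprotein, rose by 0.66 ± 0.10 (edgeR adjusted p = 0.00073), C1qc and Csf1r by 0.34 and 0.42 (adjusted p of 0.0278 and 0.0311). C1qc (0.24, adjusted p = 0.105) and Csf1r (0.27, adjusted p = 0.127) were not called in the 14 libraries, which left 1 of 12 higher and 2 lower. Cd163, a scavenger receptor of resident macrophages, fell by 0.75 log2 (edgeR adjusted p = 0.00543). Its difference was -0.31 in wild type (adjusted p = 0.336) and -1.19 in TTPΔARE (adjusted p = 0.0154), and its S libraries averaged 3.55 CPM in wild type against 6.84 CPM in TTPΔARE. Its interaction was not called (edgeR adjusted p = 0.24). The macrophage sums overlapped between conditions in both genotypes, at 176 to 217 CPM in WT-S beside 188 to 290 CPM in WT-A, and at 152 to 207 CPM in TTP-S beside 194 to 229 CPM in TTP-A.

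General leukocyte genes rose in 5 of 5 cases over both genotypes (median 0.74), among them Cd52 by 1.16, Coro1a by 1.13, Laptm5 by 0.73 and Ptprc by 0.73 log2 (edgeR adjusted p of 0.000584, 0.00133, 0.00131 and 0.00394). They summed to 39.1 to 53.3 CPM in S and 58.3 to 87.7 CPM in A of wild type, and to 24.8 to 38.1 CPM in S and 44.2 to 80.6 CPM in A of TTPΔARE, again without overlap. The B cell list was near the detection limit, since 7 of its 8 genes were under 1 CPM in all libraries and its sum was 0.541 to 4.76 CPM. Both B cell genes that could be tested rose, Cd79b by 1.29 and Cd22 by 0.82 log2 (edgeR adjusted p of 0.0169 and 0.018). T cell genes were as scarce, with 7 of 8 under 1 CPM everywhere and sums of 3.81 to 9.04 CPM. Lck, a kinase of T cell receptor signalling, was the only 1 of the 3 T cell genes tested that rose (0.99 ± 0.21, edgeR adjusted p = 0.00532). In no list was a gene at 0 in all libraries.

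Genes of the tissue itself were counted in the same way. Of 12 corpus epithelial genes, 2 rose (Epcam by 0.45, Krt18 by 0.29 log2) and 4 fell, with a median of -0.15. Of 10 squamous genes tested 0 were called by edgeR over both genotypes and 1 had an unadjusted p under 0.05 (median 1.15), of 6 adipose genes 1 fell (median 0.03), and of 6 smooth muscle genes 2 rose (median 0.19). By genotype the squamous genes had a median of 2.80 in wild type, with 10 of 10 higher in A and 1, Krt6a, called, and of -0.52 in TTPΔARE, with 1 of 10 higher and 0 called by edgeR or at an unadjusted p under 0.05. Smooth muscle genes rose in 5 of 6 cases in wild type (median 0.37) and in 0 of 6 in TTPΔARE (median 0.02, 1 with an unadjusted p under 0.05 in edgeR). The shares of all genes called higher were 9.8% and 1.55%. Within A, 4 of the 6 (Tagln, Cnn1, Des and Actg2) were called lower in TTPΔARE, beside 5.17% of all genes called in either direction. In the 14 libraries 1 of 6 rose in wild type (beside 10.5% of all genes called) and 0 of 6 were called between the genotypes within A (beside 1.81%). No interaction was called by edgeR in either list, where 3 smooth muscle and 4 squamous genes had an unadjusted p under 0.05, and the part of these tissues in the class II differences was not tested.

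**Figure D4:**
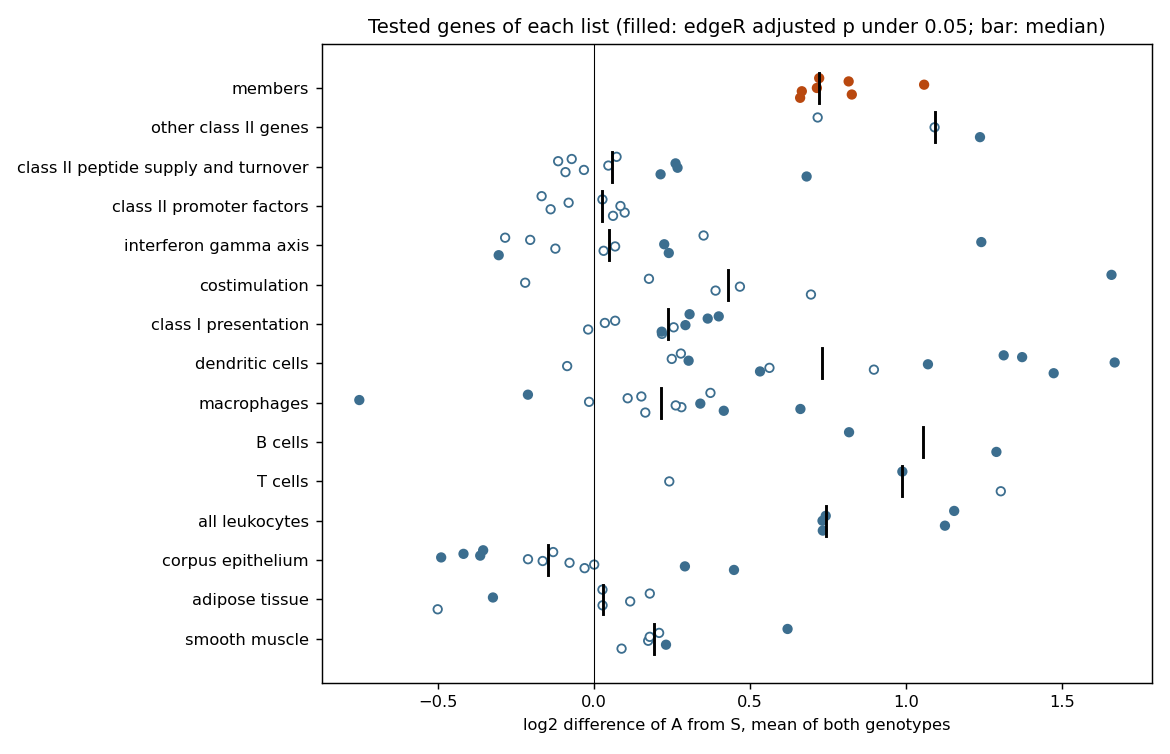
Log2 difference of A from S, averaged over both genotypes (edgeR, 16 libraries), for each tested gene of 15 lists, with filled points for an adjusted p under 0.05 and a bar at the median of each list. The 7 class II genes (orange, top row) lie between 0.66 and 1.06, the promoter factors lie around 0 with open points only, and the squamous list, with values of 0.50 to 2.17, is not drawn.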

How the data were processed

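The authors deposited raw read counts for each gene symbol, and these whole numbers were used unchanged. The submitters' processing notes name mm10, STAR 2.7.0f, featureCounts, Subread 1.6.4 and DESeq2, with no roles; annotation, strandedness and filters are not given in the sources used here. Counts were fitted over all 16 libraries with edgeR 4.0.16 in R 4.3.3 (filterByExpr, TMM, quasi-likelihood, group means, 7 contrasts), and p-values were adjusted by Benjamini-Hochberg over 15385 genes. Alternatives used DESeq2 1.42.0, limma 3.58.1, other filters and scalings, GC offsets and left-out libraries. Chi-square over degrees of freedom was 4.69 to 89.5 for the 24 library pairs of the same group, and all were kept as replicates. Transcript length and GC came from the longest protein-coding GENCODE M21 transcript (98.9% of genes matched). Named genes are the 7 members, the called genes of 15 other lists (at most 4 a list by adjusted p, and 9 named always) and the 6 genes of closest pattern. Members and lists were chosen with earlier results of these data known. Leaving out squamous-rich libraries was added after seeing the data. One gene that the rule names is not reported here.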

Additional observations from a re-analysis of the deposited data

Results flagged for a closer look

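Among the 7 class II genes in the 4 groups, 1 library stood far from the others of its group. Ciita was at 3.0 CPM in TTP-A 2, whereas the other 3 TTP-A libraries were at 6.31 to 6.9 CPM. The gap between TTP-A 2 and its nearest neighbour was 0.85 of the whole range of the group, above Dixon's 95% critical value for 4 libraries. Chance flags about 1 in 20 groups, and 28 combinations of gene and group were examined. TTP-A 2 was also the lowest TTP-A library for H2-Ab1, H2-Aa, H2-Eb1, Cd74, H2-DMa and H2-DMb1, and without it all 7 genes were called in TTP-A against TTP-S.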

How the results depend on the processing

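Over both genotypes 7 of 7 class II genes were called in A against S under every alternative except the removal of the 5 squamous-rich libraries (1 of 7, beside 2.18% of all genes). The share of all genes called under the other alternatives was 12.7% to 29.3%. Within wild type the count of 7 (beside 18.8% of all genes) became 1 in the 14 libraries (10.5%), 0 without the squamous-rich libraries (0.052%), 3 with only the groups compared (3.98%), 5 with GC offsets (15.8%) and 6 with no filter (12.7%). It was 1 to 7 when single libraries were left out (8.14% to 32.4%). Within TTPΔARE the count of 4 (2.9%) became 7 with GC offsets (5.18%), the 14 libraries (6.33%), limma voom (15.2%) or DESeq2 (5.44%), 6 with only the groups compared (7.36%) and 0 without the squamous-rich libraries (0.208%). It was 0 to 7 when single libraries were left out (0.39% to 6.14%). The replicate numbers did not pair the libraries (correlations of -0.513 to 0.331 over 24 same-numbered pairs, 3 of 16 libraries closest to their own number), and with the replicate number as a block the counts were 6 in wild type, 3 in TTPΔARE and 7 over both. No direction of an A against S difference reversed. Genotype differences near 0 did. For TTP-A minus WT-A, values with GC offsets, 14 libraries, no squamous-rich libraries and limma voom were 0.0209, 0.0593, 0.2417 and 0.0157 for H2-Aa and 0.0249, 0.0573, 0.1945 and 0.0003 for H2-Eb1. The first 3 settings gave 0.0155, 0.0765 and 0.1387 for Cd74, and the middle pair gave 0.0013 and 0.1205 for Ciita. Single left-out libraries gave -0.1296 to 0.1181 (H2-Aa), -0.1647 to 0.0801 (H2-Eb1), -0.2571 to 0.0486 (Cd74) and -0.3491 to 0.0386 (Ciita). The interaction reversed under those 4 settings to 0.0676, 0.1459, 0.2322 and 0.1033 for Ciita and to 0.0192, 0.0964, 0.0835 and 0.1010 for H2-DMa, and to -0.0009 and -0.0004 for H2-Ab1 with no filter and with a filter of 10 counts in 8 libraries. Single left-out libraries gave interactions of -0.2031 to 0.1849 (Ciita), -0.2714 to 0.0370 (H2-DMa), -0.1230 to 0.1320 (H2-Ab1), -0.0118 to 0.2938 (Cd74) and -0.1617 to 0.1726 (H2-DMb1). Over both conditions the genotype difference became 0.0100 for H2-Eb1 and 0.0044 for Ciita without the squamous-rich libraries. The causes were not tested. Both removals left fewer libraries, while GC offsets and limma voom kept all 16. None of these genotype values was called, and Ciita, at 41 to 246 counts, is limited by depth more than Cd74.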
